A study of Homo sapiens with 6 samples.

Results

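The 9 mRNAs described here belong to the p53 pathway: MDM2, MDM4, TP53BP1, CDKN1A, SESN1, GDF15, RRM2B, BAX and TP53I3. They were taken from the gene table by symbol, and all 9 were among its 23013 genes. The measurements came from RNA immunoprecipitation and sequencing (RIP-seq), in which an antibody recovers a protein from a lysate and the RNA that comes with it is sequenced. The protein was ORC1, a subunit of the complex that marks sites where DNA replication starts, and the lysate came from nuclei of HCT116, an established human colorectal cancer cell line that was left untreated and was not synchronized. The 6 libraries were 3 inputs, made from nuclear RNA with no antibody, and 3 ORC1 immunoprecipitates (ORC1 IP). An input and an ORC1 IP with the same replicate number came from the same RIP experiment according to the labels. The study reported no detectable RNA from its control IgG. No library from a control antibody was analysed here, so the amount of each mRNA that beads or antibody would bring down without ORC1 was not measured.

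p53 is a transcription factor that is kept at a low level in unstressed cells, chiefly by the ubiquitin ligase MDM2 and its relative MDM4. DNA damage and other stresses release it from this control, and it then switches on genes that halt the cell cycle, help repair or trigger cell death. No agent that activates p53 was applied here, so the mRNA levels below are basal ones.

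Recovered reads on genes numbered 13703033 to 17248924 in inputs and 25134156 to 36008733 in ORC1 IPs. Of 9 epithelial marker genes, 6 had an input mean of at least 10 normalized counts, with KRT8 the highest at 42650, while VIL1 was at 3.58 and 2 were not among the genes analysed here. The summed epithelial level ran from 47785 to 138549 in inputs and from 16799 to 145253 in ORC1 IPs. Of 7 markers of blood, fibroblasts, endothelium and liver, 2 were in the table, COL1A1 at an input mean of 232 and ALB at 0.703. Their sum, nearly all of it COL1A1, was 161 to 300 in inputs and 432 to 788 in ORC1 IPs, and its part in the results below was not tested. Calls depended on ORC1 IP replicate 2. With all 6 libraries, 610 of 16513 tested genes (3.69%) passed an adjusted p of 0.05 (limma with Benjamini-Hochberg adjustment) between ORC1 IP and input, and 3018 (18.3%) did so without it. This library was the highest of the 3 ORC1 IPs in 38.8% of tested genes and in 6 of the 9 p53 pathway mRNAs, so each member is also given without it.

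All 9 mRNAs had enough reads to be tested, with 78 to 14351 recovered reads per library. None of the 9 differed between ORC1 IP and input at an adjusted p under 0.05 in limma, edgeR or DESeq2. In limma 2.28% of all tested genes were called higher and 1.42% lower. Of the 16513 tested genes, limma called 610 in either direction, edgeR 641 and DESeq2 1984. On the log2 scale, the ratio of ORC1 IP to input ran from -1.32 for RRM2B to 1.03 for TP53BP1, with a median of 0.20 beside 0.01 over all tested genes. Before adjustment, 2 of the 9 had a p under 0.05, CDKN1A and RRM2B, beside 21.6% of all tested genes. Both were lower in the ORC1 IP, as 9.45% of tested genes were at that level, and no member was higher, as 12.2% were. The study called an RNA enriched when it was over 1 on the log2 scale and had an unadjusted p under 0.05. In limma none of the 9 passed this threshold, against 10.9% of tested genes. On recovered reads TP53BP1 passed it in DESeq2 (1.21, unadjusted p = 0.0130), as did 13.6% of tested genes, and in edgeR (1.23, unadjusted p = 0.0351), as did 12.8%. RRM2B passed the mirror threshold for lower values in limma, DESeq2 and edgeR, beside 7.25%, 7.52% and 6.75% of tested genes. A normalized count here is the number of reads on a gene divided by the size factor of its library. It is a level relative to the other genes of a library, not an absolute amount or a share of its reads. It is also an average over many cells, so fewer cells with an mRNA and less of it per cell cannot be told apart. A lower value in the ORC1 IP is a lower relative level than in nuclear RNA.

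**Figure D1:**
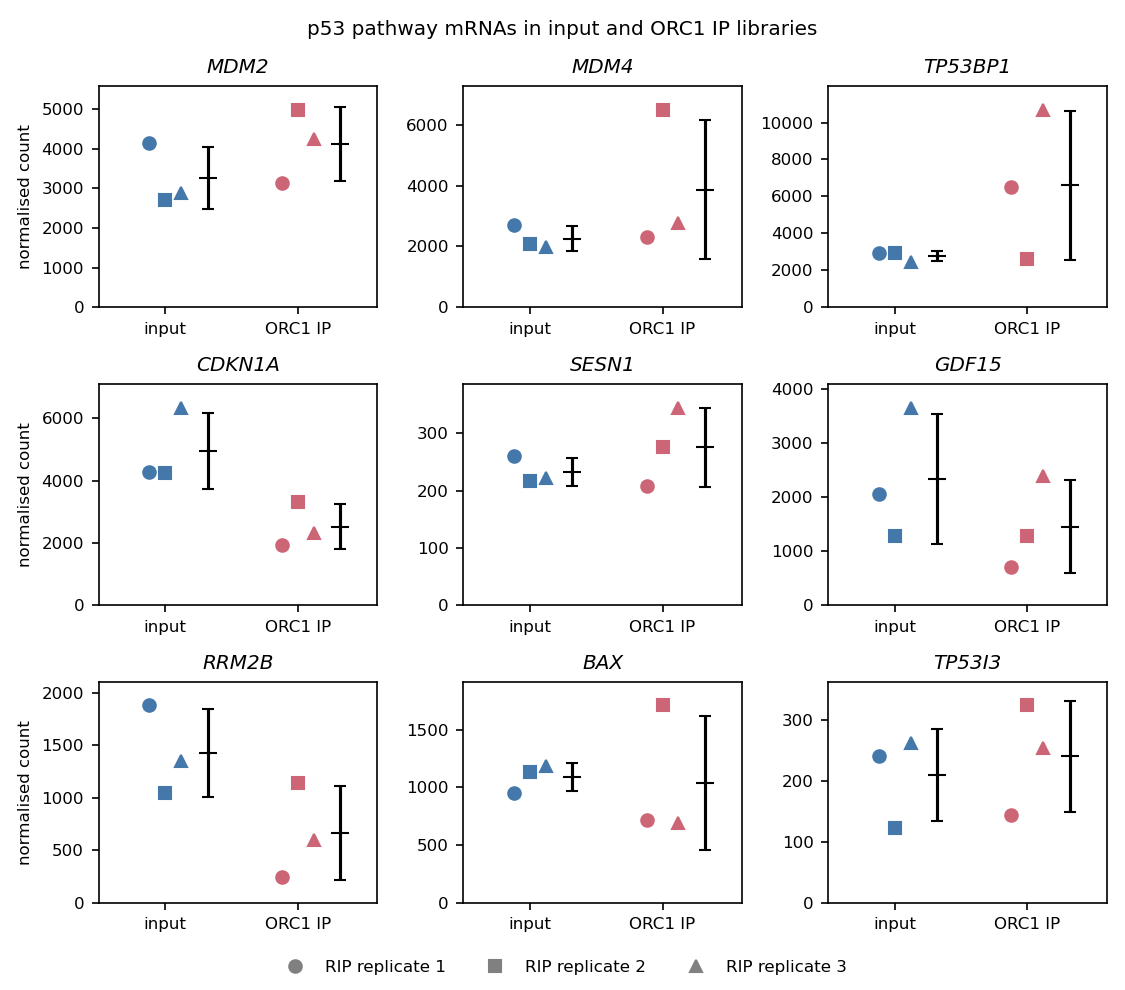
Normalized counts (linear vertical axes starting at 0) of the 9 p53 pathway mRNAs in the 3 inputs (blue) and the 3 ORC1 IPs (red), with the replicate number as the marker shape and the mean with SD (n = 3) as the black bar. For CDKN1A the 3 ORC1 IPs lie at 1933 to 3320, below the 3 inputs at 4230 to 6347, and for the other 8 mRNAs the groups overlap.

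Among the regulators, MDM2, the ubiquitin ligase that binds p53 and marks it for degradation and is itself a p53 target, is encoded on chromosome 12 (ENSG00000135679, 68808177 to 68845544, plus strand, GRCh38). Inputs 1, 2 and 3 held 4149, 2715 and 2896 normalized counts of MDM2, and ORC1 IPs 1, 2 and 3 held 3127, 4987 and 4258. ORC1 IP replicate 1 lay inside the range of the inputs and the other 2 above it. The log2 fold change was 0.34 ± 0.43 (SE; limma adjusted p = 0.692, n = 3), with a 95% interval from -0.58 to 1.27, and 0.19 without ORC1 IP replicate 2 (limma adjusted p = 0.748). It was 0.53 without ORC1 IP replicate 1 or input replicate 1.

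MDM4, a relative of MDM2 that binds p53 and blocks its activity as a transcription factor, lies on chromosome 1 (ENSG00000198625, 204516379 to 204558120, plus strand). It had 2720, 2096 and 1967 normalized counts in the inputs and 2326, 6501 and 2780 in the ORC1 IPs. ORC1 IP replicate 2 was the highest of the 6 libraries by a wide gap, ORC1 IP replicate 1 lay among the inputs and ORC1 IP replicate 3 just above them. The log2 fold change was 0.64 ± 0.46 (SE; limma adjusted p = 0.457, n = 3) and became 0.18 without ORC1 IP replicate 2 (limma adjusted p = 0.743), a smaller value by more than 1.5 times. With all libraries its 95% interval ran from -0.37 to 1.64.

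Tandem GAA repeats were examined because the study had found them in many of its ORC1-bound RNAs. The study found its GAA sequences with a motif search. Here only exact matches to GAAGAAGAA in the longest transcript were counted, so the 2 measures differ. Among the 9, only the longest MDM4 transcript (ENST00000367182.8) contained GAAGAAGAA on its sense strand, once, at bases 3849 to 3857, in the 3′ UTR in exon 11 of 11 (chromosome 1, 204551919 to 204551927, GRCh38). The match is shown with 10 bases on either side and the repeat in capitals.
MDM4: gtccacaatgGAAGAAGAAttgtcttgga
Of the tested genes with a transcript in GENCODE v44, 12.9% held at least 1 such match, against 1 of 9 here. In 7 of the other members the longest tandem run was 2 GAA units, and GDF15 had no run of 2 or more. TP53BP1, which had the highest fold change of the 9, thus held no exact match, and whether it holds the motif of the study was not tested. The presence of a match in MDM4 is a description of its letters alone.

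TP53BP1 encodes 53BP1, a large scaffold protein first found as a p53 partner, which binds chromatin at DNA double-strand breaks and steers their repair (ENSG00000067369, chromosome 15, 43403061 to 43510728, minus strand). Inputs held 2945, 2928 and 2472 normalized counts, and the ORC1 IPs 6502, 2599 and 10695. ORC1 IPs 1 and 3 exceeded all inputs, while ORC1 IP replicate 2 lay within their range, so TP53BP1 was the one member of which this library was the lowest ORC1 IP. The log2 fold change was 1.03 ± 0.53 (SE; limma adjusted p = 0.286, n = 3), with a 95% interval from -0.12 to 2.18. Without ORC1 IP replicate 2, TP53BP1 rose by 1.59 ± 0.36 on the log2 scale (SE; limma adjusted p = 0.00789), where 11.9% of tested genes were called higher, and edgeR without that library gave an adjusted p of 0.00918, with 11.6% called higher. The value was 0.57 without ORC1 IP replicate 3, the library in which TP53BP1 was highest (limma adjusted p = 0.601). The libraries were made with a stranded kit, but the sources used here do not state whether reads were counted by strand. Of the exon bases of TP53BP1, 28.8% also lie in exons of TUBGCP4 on the opposite strand. TUBGCP4 itself was at -0.14 ± 0.34 on the log2 scale (SE; limma adjusted p = 0.860).

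Of the p53 target genes, CDKN1A encodes p21, the inhibitor of cyclin-dependent kinases that carries out p53-dependent arrest (ENSG00000124762, chromosome 6, 36676460 to 36687337, plus strand). Normalized counts were 4272, 4230 and 6347 in the inputs and 1933, 3320 and 2310 in the ORC1 IPs. CDKN1A was the only member whose groups did not overlap, each ORC1 IP being below each input, which was the case for 13.5% of all tested genes. Its mean went from 4950 ± 1210 for the inputs to 2521 ± 717 for the ORC1 IPs (SD, n = 3), which is -0.98 ± 0.43 on the log2 scale (SE; limma adjusted p = 0.203; 95% interval -1.91 to -0.06). Without ORC1 IP replicate 2 it fell by 1.20 on the log2 scale (limma adjusted p = 0.0277, edgeR adjusted p = 0.0284), where 6.38% of tested genes were called lower in limma and 7.12% in edgeR. It was at -0.81 without ORC1 IP replicate 1 (limma adjusted p = 0.429) and at -0.79 without input replicate 3 (limma adjusted p = 0.615).

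RRM2B encodes p53R2, the p53-induced small subunit of ribonucleotide reductase that supplies deoxynucleotides for DNA repair and mitochondrial DNA (ENSG00000048392, chromosome 8, 102204502 to 102238961, minus strand). The inputs held 1879, 1048 and 1349 normalized counts, and the ORC1 IPs 249, 1139 and 598. ORC1 IPs 1 and 3 were below all inputs and ORC1 IP replicate 2 was above the lowest input. With -1.32 ± 0.50 (SE; limma adjusted p = 0.146, n = 3; 95% interval -2.41 to -0.24), RRM2B had the lowest log2 fold change of the 9. Without ORC1 IP replicate 2 it fell by 1.84 (limma adjusted p = 0.00749, edgeR adjusted p = 0.00807), where 6.38% of tested genes were called lower in limma and 7.12% in edgeR. It was at -0.75 without ORC1 IP replicate 1, the library in which RRM2B was lowest (limma adjusted p = 0.405). Over the 6 libraries, the 3 tested genes whose log2 values followed RRM2B most closely were ZDHHC20P4, FKBP1A and SLC35A5, with Pearson correlations of 0.997, 0.996 and 0.996. None of these 3 passed the threshold. They were picked as the highest correlations among all 16513 tested genes over only 6 libraries, so these values are no evidence of a tie to RRM2B.

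GDF15, a secreted cytokine of the stress response that p53 induces (ENSG00000130513, chromosome 19, 18374731 to 18389176, plus strand), varied widely between libraries of one group. It had 2052, 1286 and 3658 normalized counts in the inputs and 697, 1270 and 2394 in the ORC1 IPs. ORC1 IP replicate 1 was the lowest and input replicate 3 the highest of the 6 libraries, and the groups overlapped. The log2 fold change was -0.73 ± 0.51 (SE; limma adjusted p = 0.439, n = 3), with a 95% interval from -1.84 to 0.38, and -0.72 without ORC1 IP replicate 2 (limma adjusted p = 0.35). Other single libraries moved it by over 1.5 times, to -0.29 without ORC1 IP replicate 1, -0.34 without input replicate 3 and -1.18 without ORC1 IP replicate 3.

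SESN1 encodes sestrin 1, a stress-induced inhibitor of mTORC1 signaling (ENSG00000080546, chromosome 6, 108984309 to 109094846, minus strand). Inputs held 261, 216 and 221 normalized counts, and the ORC1 IPs 207, 275 and 345. The log2 fold change was 0.22 ± 0.36 (SE; limma adjusted p = 0.775, n = 3), with a 95% interval from -0.56 to 1.00, and 0.21 without ORC1 IP replicate 2 (limma adjusted p = 0.742). It was 0.41 without ORC1 IP replicate 1 and 0.043 without ORC1 IP replicate 3. ORC1 IP replicate 1 was the lowest of the 6 libraries.

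The remaining 2 targets act in cell death and oxidative stress. BAX forms pores in the outer mitochondrial membrane during apoptosis (ENSG00000087088, chromosome 19, 48954815 to 48961798, plus strand). Its normalized counts were 952, 1130 and 1183 in the inputs and 718, 1711 and 691 in the ORC1 IPs, so that ORC1 IP replicate 2 was the highest and the other 2 ORC1 IPs the lowest of all 6 libraries. The log2 fold change was -0.19 ± 0.41 (SE; limma adjusted p = 0.829, n = 3), with a 95% interval from -1.07 to 0.69, and -0.62 without ORC1 IP replicate 2 (limma adjusted p = 0.192).

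TP53I3, also called PIG3, encodes a quinone oxidoreductase linked to p53-induced oxidative stress (ENSG00000115129, chromosome 2, 24077433 to 24085861, minus strand). It had 242, 123 and 263 normalized counts in the inputs and 144, 325 and 254 in the ORC1 IPs, which put the ratio at 0.20 ± 0.44 on the log2 scale (SE; limma adjusted p = 0.840, n = 3; 95% interval -0.75 to 1.15). The lowest value was that of input replicate 2 and the highest that of ORC1 IP replicate 2. For BAX and TP53I3 the direction was not fixed. Without ORC1 IP replicate 1 or 3 the log2 fold change of BAX was 0.0050 or 0.033, and without input replicate 2 or ORC1 IP replicate 2 that of TP53I3 was -0.14 or -0.05. Scaling by total count, which moved the median of all genes from 0.01 to -0.19, put TP53I3 at -0.013.

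**Figure D2:**
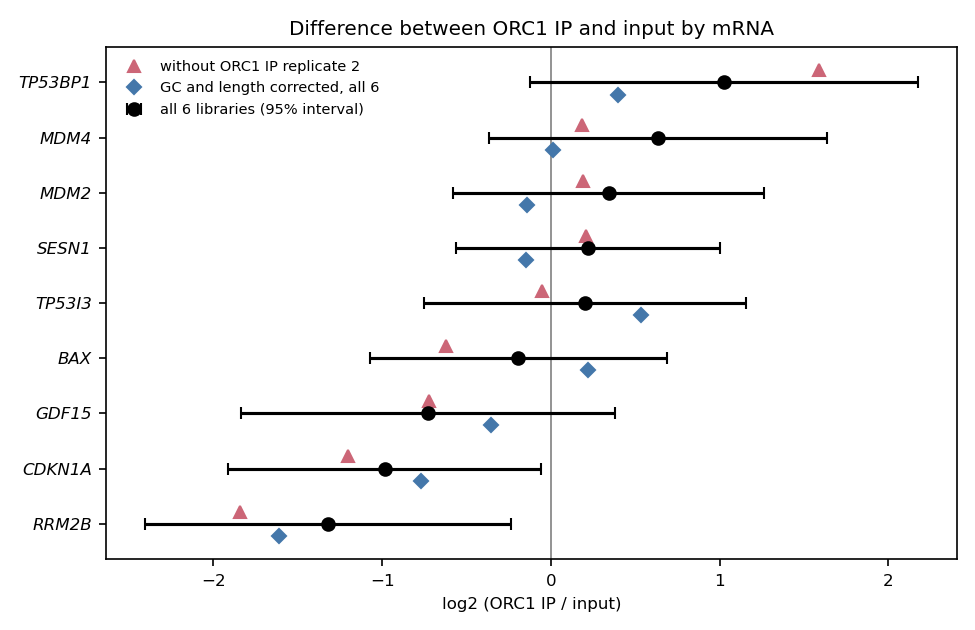
Log2 fold change of ORC1 IP over input for each mRNA (horizontal axis) from limma with all 6 libraries (black points with 95% intervals), without ORC1 IP replicate 2 (red triangles) and after correction for GC content and transcript length (blue diamonds). The intervals of RRM2B and CDKN1A end below 0, but neither mRNA passed after adjustment over all genes (0.146 and 0.203).

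The level of each mRNA in nuclear RNA was compared per kilobase of its longest transcript. CDKN1A had the highest input level of the 9, at 2183 ± 534 normalized counts per kilobase, followed by GDF15 at 1578 ± 819 and BAX at 801 ± 89.2 (SD, n = 3). CDKN1A stood at percentile 97.0 of tested genes on this scale. MDM2 (434 ± 104), RRM2B (299 ± 88.1), TP53BP1 (268 ± 25.9) and MDM4 (225 ± 40.1) followed, and TP53I3 (127 ± 45.7) and SESN1 (41.1 ± 4.31) were lowest, the latter at percentile 31.3. Input values of neighbours in this order overlapped, except between BAX and MDM2, MDM4 and TP53I3, and TP53I3 and SESN1. The most abundant member, CDKN1A, thus had the lowest fold change but for RRM2B, and the least abundant, SESN1, one within its SE of 0.

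Each member was placed by the length of its longest transcript among the length deciles of all tested genes. Their longest transcripts spanned 1358 nt (BAX) to 10369 nt (TP53BP1) and their GC content 35.1% (RRM2B) to 64.1% (GDF15). The 2 longest, TP53BP1 and MDM4 (10050 nt), had the 2 highest fold changes. Across the 9 mRNAs, fold change and transcript length had a Spearman rho of 0.717, and across 16062 tested genes a rho of 0.336. Genes are not independent replicates, and the points share the same 6 libraries. Genes in the longest decile of transcripts had a median log2 fold change of 0.54 and an upper quartile of 1.11, so TP53BP1 at 1.03, MDM4 at 0.64 and MDM2 at 0.34 lay between the quartiles of genes of their length. BAX, GDF15, TP53I3 and SESN1 also lay between the quartiles of their length decile. CDKN1A at -0.98 lay below the lower quartile of its decile (-0.61), and RRM2B at -1.32 below that of its own (-0.24).

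**Figure D3:**
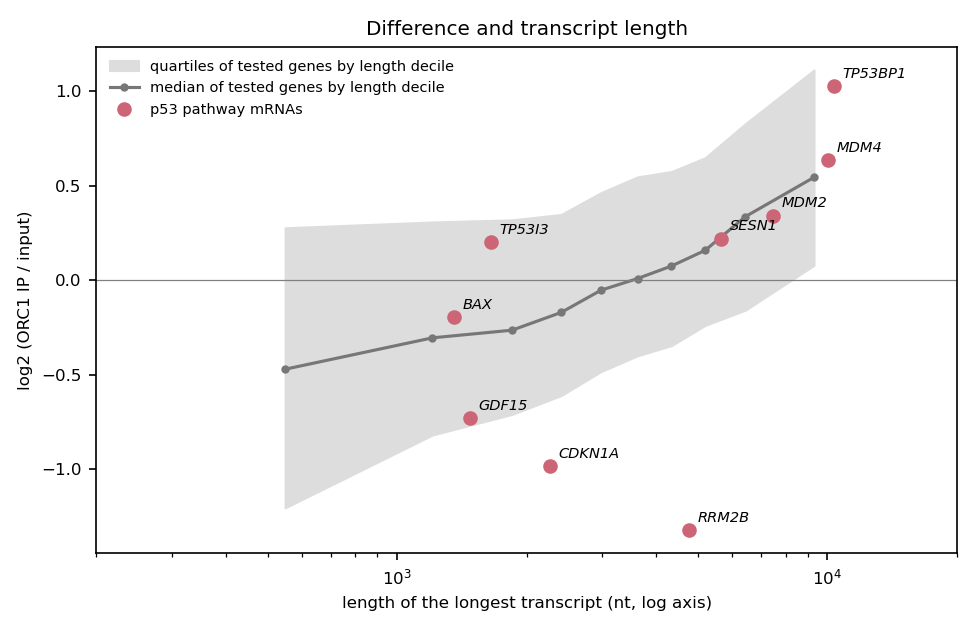
Log2 fold change of ORC1 IP over input (vertical axis) against the length of the longest transcript in nt (log axis), with the 9 mRNAs in red and, for all tested genes, the median (line) and quartiles (grey band) of each length decile, drawn at the median length of the decile. RRM2B and CDKN1A lie below the band, while TP53BP1 and MDM4, at the right, lie at heights inside the quartiles of the longest decile (0.08 to 1.11).

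A correction of each library for GC content and transcript length moved TP53BP1 from 1.03 to 0.40 (limma adjusted p = 0.593), MDM4 from 0.64 to 0.01 and CDKN1A from -0.98 to -0.77 (limma adjusted p = 0.235). RRM2B moved the other way, from -1.32 to -1.61 (limma adjusted p = 0.0688). MDM2, SESN1 and BAX changed sign, to -0.14, -0.15 and 0.22, with adjusted p-values of 0.763 to 0.851 in limma. Without ORC1 IP replicate 2 the corrected TP53BP1 was no longer called (0.74, limma adjusted p = 0.0914), whereas RRM2B fell by 1.97 (limma adjusted p = 0.00763) and CDKN1A by 0.94 (limma adjusted p = 0.0452), where 17.4% of genes were called, 9.43% higher and 8.01% lower.

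Other genes of the pathway were taken from lists of p53 targets and of p53 regulators. Of 60 further targets, 55 were in the table and 53 were tested. GPX1, a glutathione peroxidase, fell, and no target was called higher, beside 1.42% of all tested genes called lower and 2.28% called higher. The median log2 fold change of the targets was -0.30, with 16 positive and 37 negative values. GPX1 had 2286, 2720 and 3652 normalized counts in the inputs and 579, 1273 and 756 in the ORC1 IPs. Each ORC1 IP was below each input, as in 13.5% of all tested genes. On the log2 scale GPX1 fell by 1.78 ± 0.40 (SE; limma adjusted p = 0.0340). Of the 50-base stretches of its longest transcript, 55.9% also occur in transcripts of other genes, so its counts are uncertain. It lost the call without input replicate 2 (0.128) or 3 (0.244), without ORC1 IP replicate 1 (0.0946) or 3 (0.105) and after the GC and length correction (0.0695; limma adjusted p in each case), with values of -1.81, -1.60, -1.53, -1.72 and -1.31 in this order against -1.78 with all libraries.

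The next lowest targets were SERTAD1 (-1.37), TRIAP1 (-1.22), a small inhibitor of apoptosis, and FBXO22 (-1.12), a substrate receptor of an SCF ubiquitin ligase, with limma adjusted p-values of 0.0553 to 0.0988. In these 3 genes, picked as the next lowest of the list, all ORC1 IPs were below all inputs, as in 13.5% of all tested genes. The highest were POLK (1.11), a DNA polymerase that copies past damaged bases, XPC (1.10), which recognizes DNA lesions for nucleotide excision repair, PLK2 (1.03), a kinase of the polo family, and E2F7 (0.85), a transcriptional repressor of the cell cycle. Their limma adjusted p-values were 0.105 to 0.281. POLK, PLK2 and E2F7, picked among the highest of the list, were higher in all ORC1 IPs than in all inputs, as were 12.7% of tested genes. XPC had 4335 and 3081 normalized counts in ORC1 IPs 1 and 3, above all inputs (850 to 1079), but 710 in ORC1 IP replicate 2, below them.

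Of 72 regulators, 69 were tested, 4 rose and none was called lower, beside 2.28% and 1.42% of all tested genes. The median log2 fold change was 0.32, with 45 positive and 24 negative values. The 4 were BRD7 (1.90 ± 0.42), a bromodomain protein that binds p53 and acts with it at target genes, ATM (1.77 ± 0.40), the kinase that signals double-strand breaks to p53, SETD8 (1.75 ± 0.41), which methylates histone H4 at lysine 20 and also p53, and PPP1R13B (1.52 ± 0.34), known as ASPP1, which steers p53 towards apoptotic targets (log2 fold changes with SE; limma adjusted p of 0.0308, 0.0344, 0.0394 and 0.0349). ATM had 1135, 1095 and 679 normalized counts in the inputs and 2452, 2940 and 4612 in the ORC1 IPs. PPP1R13B had 291, 233 and 221 in the inputs and 870, 725 and 563 in the ORC1 IPs. In all 4 genes each ORC1 IP was above each input, as in 12.7% of all tested genes. The 4 were called on these same libraries, so this is not separate evidence for them.

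These 4 calls depended on the set of libraries. None of the 4 was called in limma when input replicate 2 or 3 or the third ORC1 IP was left out. All genes called then numbered 87, 29 and 47, beside 610 with all libraries. ATM alone was called without ORC1 IP replicate 1 (0.0374), and without input replicate 1 ATM was not (0.0538). With each library left out in turn, log2 fold changes stayed at 1.65 to 2.30 for BRD7 and 1.51 to 1.96 for ATM. They were 1.43 to 2.08 for SETD8 and 1.37 to 1.68 for PPP1R13B. Without ORC1 IP replicate 2, 24 regulators were higher and 2 lower, the 4 among them, beside 11.9% and 6.38% of all tested genes. After the GC and length correction SETD8 was at 1.83, BRD7 at 1.58, PPP1R13B at 1.32 and ATM at 1.09 on the log2 scale, and none of the 4 passed (limma adjusted p of 0.0563 for SETD8 to 0.0862 for ATM). Exons of ADCY7 on the opposite strand share 41.8% of the exon bases of BRD7. ADCY7 itself was at -0.31 ± 0.36 on the log2 scale (SE; limma adjusted p = 0.666). Of the 50-base stretches of BRD7, 15.5% also occur in other transcripts, mostly those of BRD7P2. SETD8 (named KMT5A in GENCODE v44) has 25.2% of its 50-base stretches in common with other transcripts, mostly those of its pseudogene KMT5AP1.

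Regulators at the lower end that did not pass included TP53RK (-0.996), a kinase reported to phosphorylate p53, and PRMT5 (-0.95), an arginine methyltransferase (limma adjusted p of 0.121 and 0.352).

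For comparison, 65 genes of the DNA damage response had a median log2 fold change of 0.58, with 8 called higher and 0 lower in limma, where 2.28% and 1.42% of all tested genes were. A list of 49 cyclin, CDK and other cell-cycle genes had a median of -0.20 with none called in limma, and 11 had an unadjusted p under 0.05, beside 21.6% of all tested genes. The longest transcripts of these lists differed too, with medians of 5219 nt for the damage response, 4697 nt for p53 regulators, 3882 nt for p53 targets and 2904 nt for cell-cycle genes. The part of length in these medians was not tested, and no difference between the lists was tested.

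**Figure D4:**
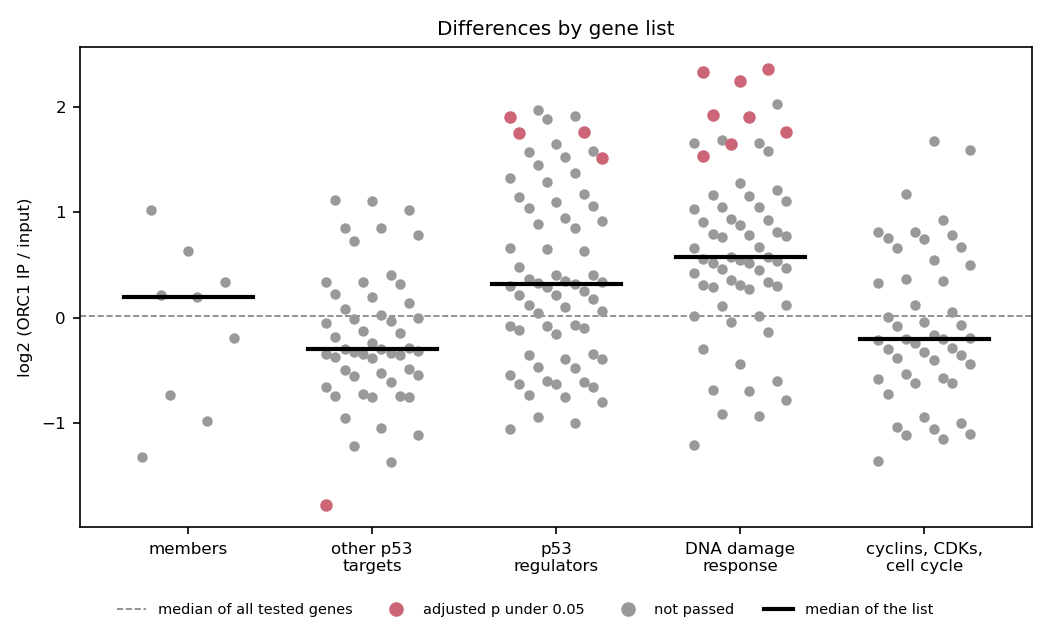
Log2 fold change of ORC1 IP over input (vertical axis) of each tested gene in the 9 p53 pathway mRNAs, the other p53 targets, the p53 regulators, the DNA damage response and the cell-cycle list, with genes at a limma adjusted p under 0.05 in red, the rest in grey, list medians as black bars and the median of all tested genes (0.01) dashed. The medians are 0.20, -0.30, 0.32, 0.58 and -0.20 in this order, and called genes number 0, 1, 4, 8 and 0.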

How the data were processed

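RNA from 3 inputs and 3 ORC1 IPs was measured. From trimmed reads (Trimmomatic), the authors made alignments to hg19 with STAR and Ensembl genes, dropped those on GL contigs, obtained gene counts with featureCounts and compared groups with DESeq2. The deposited values are a signal, namely gene counts scaled by a size factor of the library. Within a library, values were whole multiples of the smallest nonzero one (tolerance 0.001, 100% of values), so whole reads were recovered. Columns with the authors' own comparison (log2 fold changes and their standard errors, a Wald score, p-values and a mean per gene) were not used.

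Genes with a mean of at least 10 normalized counts over the 6 libraries were tested (16513). Differences in log2(normalized count + 1), a scale that understates changes of low genes, were tested with limma 3.58.1 (intensity trend, no block) and Benjamini-Hochberg adjustment over all tested genes. edgeR 4.0.16 and DESeq2 1.42.0 were run on recovered reads. These steps were tested on simulated data. Transcript length, GC content and sequence came from the longest transcript in GENCODE v44 (GRCh38), matched by gene identifier for 97.3% of tested genes; gene coordinates are those of GRCh38, not of the hg19 alignment. For the correction, a loess surface (span 0.5) on GC content and log2 length was removed from each library. Members, lists and tests were chosen with earlier results of these data known. The genes named from the lists were those called, or the 4 largest changes per direction where fewer than 4 were called, and for RRM2B, the member with the largest change, the 3 genes most correlated with it. Some genes that this rule names are not reported here.

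The labels tie an input and an ORC1 IP of one number to one RIP experiment. After subtraction of group means, libraries with one number correlated at -0.322, -0.240 and 0.215 in replicates 1, 2 and 3, so the pairing was used as a replicate block in alternative fits only. Nothing in the labels says that replicates came from separate cultures, so p-values measure the spread between these libraries. Alternatives covered the pseudocount, the filter, scaling, the test, the block, GC content and length, and leaving out each library. Others, edgeR and the corrected limma fit without ORC1 IP replicate 2, and the threshold of the study applied in DESeq2 and edgeR, were chosen after seeing the data.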

Additional observations from a re-analysis of the deposited data

How the results depend on the processing

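The count of 0 called members held under every planned setting apart from leaving out ORC1 IP replicate 2. That setting gave 3 of the 9 (range 0 to 3 when leaving out each library), beside 18.3% of all tested genes. Of the settings chosen after seeing the data, edgeR without that library gave 3, beside 18.7% of all tested genes. The GC content and length correction without it gave 2, beside 17.4%, with a median log2 fold change of -0.27 over the members. When each library was left out in turn, that median ran from -0.14 to 0.41, all called genes from 29 to 3018, called targets from 0 to 6 and called regulators from 0 to 26. All genes called numbered 1984 in DESeq2, 1390 in DESeq2 with the replicate block, 209 after the correction for GC content and length, 82 with that correction and the replicate block, 239 in limma without the trend and 183 with total count scaling, and, without ORC1 IP replicate 2, 3089 in edgeR and 2801 after the correction. Called targets numbered 3 in DESeq2 and 2 with its replicate block, 0 after the correction with or without the replicate block, 0 without the trend, 0 with total count scaling, and 5 (edgeR) and 10 (correction) without ORC1 IP replicate 2. Called regulators numbered 15 in DESeq2 and 10 with its replicate block, 0 after the correction with or without the replicate block, 0 without the trend, 0 with total count scaling, and 26 (edgeR) and 25 (correction) without ORC1 IP replicate 2. Counts of targets and regulators are to be read beside all genes called in the same setting. Those totals are out of 16513 tested genes, or 16062 with the correction. The cause of these moves was not tested.

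Signs changed in 5 members, none of them called. After the correction, with or without the replicate block, MDM2 was at -0.14, SESN1 at -0.15 and BAX at 0.22. With the correction and without ORC1 IP replicate 2, MDM2 was at -0.32, MDM4 at -0.59 and SESN1 at -0.17. TP53I3 was at -0.013 with total count scaling and at -0.15 in edgeR without ORC1 IP replicate 2. Leaving out each library gave -0.62 to 0.033 for BAX and -0.14 to 0.53 for TP53I3. CDKN1A, RRM2B, GDF15 and TP53BP1 kept their sign in all settings run. The replicate block in limma called 0 members, 1 target and 6 regulators, beside 624 of all 16513 tested genes, and changed no call of a member. The target median minus that of all genes in the same setting ran from -0.39 to -0.23, and the regulator median minus that of all genes from 0.16 to 0.52. Depth bears most on the members with the fewest reads, of which the lowest number in a library was 78.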
